A study of Homo sapiens with 4 samples.

Results

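The TNF superfamily ligands around TNFSF13 were examined in SNU638 cells, a long-established line from human gastric cancer. The 10 members, out of 46427 genes in the deposited table, were chosen by gene symbol: TNFSF13, TNFSF12, their read-through gene TNFSF12-TNFSF13, TNFSF13B, TNFSF10, TNFSF9, TNFSF14, TNFSF15, TNF and LTB. TNFSF13 was the starting point because its counts were lower in YTHDF1-overexpressed cells than in control cells, so the values of the 10 genes in that comparison are given as a description, without a p-value. The study asked how YTHDF1, a protein that binds N6-methyladenosine in mRNA, alters the response to IFN-γ. Control cells and cells carrying YTHDF1 overexpression were sequenced with 2 biological replicates each, and both groups received IFN-γ (10 ng/ml) after serum had been withheld for 24 h. The sample labels state 8 h of IFN-γ, whereas the figure legends of the study state 24 h. No untreated cells were among the 4 libraries, so no value here measures induction by IFN-γ. The comparison rests on a single cell line, and the labels do not say whether the replicates came from separate transfections.

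Ligands of the TNF superfamily are made as trimeric membrane proteins with an extracellular receptor-binding domain, and many are released by proteases such as furin or ADAM17. Their receptors recruit TRAF proteins, which lead to NF-κB, or death domain proteins, which lead to caspases. TNFSF13 (APRIL) and TNFSF13B (BAFF) sustain B cells and plasma cells and favor IgA production at mucosal surfaces, and epithelial cells are among their sources. TNFSF12 (TWEAK) acts on epithelial and stromal cells through TNFRSF12A. The read-through gene encodes TWE-PRIL, which joins the membrane anchor of TWEAK to the receptor-binding domain of APRIL.

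The 3 genes of the locus lie in a row on the plus strand of chromosome 17 in GRCh38. In the GENCODE 29 annotation, a 7-exon TNFSF12 transcript spans 7548891 to 7557890, a 6-exon TNFSF13 transcript spans 7558597 to 7561608, and the 11-exon read-through transcript spans 7549099 to 7561601. The 706 bases between the end of TNFSF12 and the start of TNFSF13 are thus inside the read-through gene. Of the 1816 exon bases of the read-through transcript, 553 (30.5%) lie in exons of TNFSF12, 1263 (69.5%) lie in exons of TNFSF13, and 0 lie in neither. Its first 6 exons are shared with TNFSF12 and its last 5 with TNFSF13. In these transcripts, only the join from exon 6 (7556778 to 7556902) to exon 7 (7559624 to 7559702) sets it apart from its neighbours. In contrast, 708 bases (35.9%) of the TNFSF13 transcript and 1000 bases (64.4%) of the TNFSF12 transcript are outside it. A read must cross its own join to be told apart as read-through, whereas reads in the bases outside it need not cross any join. The coding sequences at the 3 joins are shown with 20 bases on each side, and capitals mark bases that belong to TNFSF13.
TNFSF12, exon 6 to exon 7: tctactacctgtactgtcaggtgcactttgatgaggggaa
TNFSF12-TNFSF13, exon 6 to exon 7: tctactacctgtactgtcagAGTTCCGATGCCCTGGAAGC
TNFSF13, exon 1 to exon 2: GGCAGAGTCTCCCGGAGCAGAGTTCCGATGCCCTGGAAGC
The counting tool and its strand setting are not given in the sources used here, so how reads inside shared exons were divided among the 3 genes is not known, and the counts of all 3 are uncertain to that extent. The deposited counts carry RefSeq gene identifiers, and RefSeq starts TNFSF13 at 7558282. The exons used in counting may thus differ from the GENCODE exons described here.

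**Figure D1:**
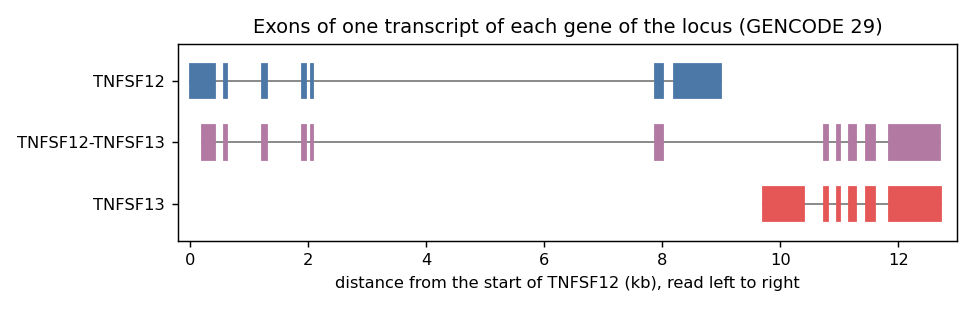
Exons (boxes) of 1 transcript of each of the 3 genes, with the distance from the start of TNFSF12 in kb on the x axis and a row for each gene. Each of the 11 exons of TNFSF12-TNFSF13 sits under or above an exon of TNFSF12 or TNFSF13.

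The libraries held 57398137 to 60864942 counts, and 17781 genes passed the filter on low counts. YTHDF1 (82.2 and 80.3 CPM in control) reached 16490 CPM in YTHDF1 replicate 1 and 2627 CPM in YTHDF1 replicate 2, where CPM are counts scaled to a common library size by TMM. Libraries of the same replicate number resembled each other more than the replicates of a group did. The labels give the numbers no meaning beyond the replicate, so culture, day and sequencing cannot be told apart as the source, and values within each number are given beside those over all 4 libraries. The 5 epithelial markers (EPCAM, CDH1, KRT8, KRT18 and KRT19) summed to 3860 to 6720 CPM. Of the markers of other cell types, MS4A1, CD3D, CD2 and COL1A2 had 0 counts in the 4 libraries, and PTPRC had 0 to 11. Other genes of the same marker lists were counted, among them SDC1 (3843 to 5438 counts), COL1A1 (323 to 639), CD68 (305 to 352), ITGAM (46 to 118) and CD79A (8 to 20).

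TNFSF13 had 128 and 131 counts in control replicates 1 and 2 (2.15 and 2.31 CPM), and 57 and 63 counts in YTHDF1 replicates 1 and 2 (0.968 and 1.04 CPM). The groups did not overlap, and the replicates of each group were close to each other. Its log2 fold change, YTHDF1 over control, was −1.15 (standard error 0.30), and it was −1.15 within number 1 and −1.14 within number 2. Its difference between the libraries numbered 2 and those numbered 1 was 0.098 on the log2 scale (standard error 0.43, adjusted p = 0.865 by edgeR's quasi-likelihood test). Calls between the vectors required an unadjusted p under 0.05 by this test with a log2 fold change of 0.5 or more, up or down. Of the members, 1 was called lower with YTHDF1, TNFSF13 itself, and 0 were called higher, against 0.101% of all genes tested in either direction, 0.0787% lower and 0.0225% higher. With any 1 of the 4 libraries left out, TNFSF13 was not called. Nothing is read from this count, since TNFSF13 was chosen from the same comparison. At an adjusted p under 0.05, 0 of 17781 genes were called by edgeR, with 18 at the unadjusted rule, and 3 by DESeq2's Wald test. The edgeR fit had no term for the replicate number. It did not call YTHDF1 itself at the adjusted threshold, although YTHDF1 was overexpressed in both YTHDF1 libraries, at 16490 and 2627 CPM. The reason for this was not tested. An absence of calls between the vectors therefore does not show that a gene was unchanged.

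The read-through gene showed another pattern. TNFSF12-TNFSF13 had 0 and 100 counts in control replicates 1 and 2, and 84 and 144 counts in YTHDF1 replicates 1 and 2 (0, 1.76, 1.43 and 2.38 CPM). Control replicate 1 stood apart from the other libraries, and the groups overlapped. A count of 0 allows up to 3 counts, so the CPM of YTHDF1 replicate 1 was at least 28.3-fold higher than that of control replicate 1, a comparison of 2 libraries that covers counting error only. Within number 2 the log2 difference was 0.43. The fitted log2 fold change over all libraries was 1.11 with a standard error of 2.21, and without control replicate 1 it was 0.11.

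TNFSF12 had 544 and 495 counts in control and 522 and 615 counts in YTHDF1-overexpressed cells (9.15, 8.73, 8.86 and 10.2 CPM). The groups overlapped, and the log2 fold change was 0.092 (standard error 0.20). Thus, of the 3 genes of the locus, TNFSF13 was lower with YTHDF1 in both numbers and the read-through gene was higher in both, though its groups overlapped, while TNFSF12 was lower in number 1 and higher in number 2.

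If each shared read was counted in exactly 1 gene, the sum over the 3 genes does not depend on how these reads were divided. Whether some shared reads were dropped or counted in more than 1 gene is not known. The sum over the 3 genes was 672 and 726 counts in control and 663 and 822 counts with YTHDF1 (11.3, 12.8, 11.3 and 13.6 CPM). These values overlapped between the groups, and the log2 fold change of the sum was 0.045 (standard error 0.20), with −0.0055 within number 1 and 0.089 within number 2. TNFSF13 and the read-through gene alone, a sum chosen after the counts were seen because both encode the receptor-binding domain of APRIL, had 128 and 231 counts in control and 141 and 207 counts with YTHDF1. This sum still depends on how reads were divided between TNFSF12 and the read-through gene, which share 553 exon bases. This sum overlapped between the groups as well, with a log2 fold change of −0.096 (standard error 0.47), and the difference within the numbers had opposite signs, 0.15 in number 1 and −0.25 in number 2. Without control replicate 1 the fitted value was −0.48, and without control replicate 2 it was 0.43. Within the locus, counts lower with YTHDF1 in both numbers were thus seen for TNFSF13 alone and for neither sum. Whether the division of shared reads had a part in it was not tested.

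The makeup of the locus shows the same values as shares. In control, TNFSF13 took 19.1% of the locus counts in replicate 1 (exact Clopper-Pearson 95% interval 16.2 to 22.2) and 18.04% in replicate 2 (15.3 to 21.04). With YTHDF1, it took 8.60% in replicate 1 (6.58 to 11) and 7.66% in replicate 2 (5.94 to 9.70). These shares restate the counts by which TNFSF13 was chosen. The read-through gene took 0 of 672 counts in control replicate 1, which allows a share of up to 0.446%, against 13.8% in control replicate 2 (11.3 to 16.5). With YTHDF1, it took 12.7% in replicate 1 (10.2 to 15.4) and 17.5% in replicate 2 (15.0 to 20.3). Of the counts on TNFSF13 and the read-through gene together, the latter held 43.3% in control replicate 2, and 59.6% and 69.6% in the YTHDF1 libraries numbered 1 and 2. The intervals and limits describe counting error alone, as the libraries carried no molecular identifiers.

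**Figure D2:**
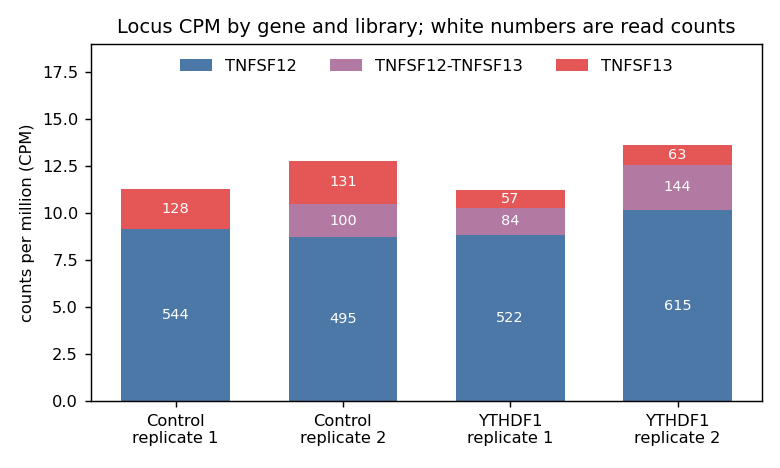
Stacked CPM of the 3 genes in each library on the y axis, with the read counts written in white. The full bars run from 11.3 to 13.6 CPM, the TNFSF13 segment is smaller in both YTHDF1 libraries, and the TNFSF12-TNFSF13 segment is missing in control replicate 1.

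The neighbours of the locus include another read-through gene, SENP3-EIF4A1. None of the 5 listed neighbours was called between the vectors. SENP3-EIF4A1 had 84.6 and 43.6 CPM in control and 78.8 and 41.1 CPM with YTHDF1, and it followed the replicate number (log2 fold change of number 2 over number 1 −0.95, standard error 0.055, adjusted p = 1.63e-06). TMEM256 was likewise lower in number 2 (log2 fold change −0.74, adjusted p = 2.82e-04).

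The other ligands lie apart from this locus. In RefSeq on GRCh38.p14, TNFSF13B is on chromosome 13 (108269629 to 108308484), TNFSF10 on chromosome 3 (172505508 to 172523430), TNFSF15 on chromosome 9 (114784635 to 114806039), and TNFSF9 (6531026 to 6535924) and TNFSF14 (6661253 to 6670588) on chromosome 19. TNF (31575565 to 31578336) and LTB (31580558 to 31582425) are 2221 bases apart on chromosome 6. Levels were compared between genes as CPM per kb of exon, with exon lengths from GENCODE 29. TNFSF12 (mean over 4 libraries 4.91), TNFSF9 (4.79) and TNFSF10 (3.3) were the most abundant members on this scale, and each overlapped its neighbour in the order. TNFSF13B (1.51, range 0.699 to 2.34) lay under the lowest TNFSF10 value of 2.7. The read-through gene (0.767), TNFSF13 (0.711) and TNF (0.213) followed, with overlapping ranges. LTB (0.0796), TNFSF14 (0.00531) and TNFSF15 (0.0016) were the lowest.

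**Figure D3:**
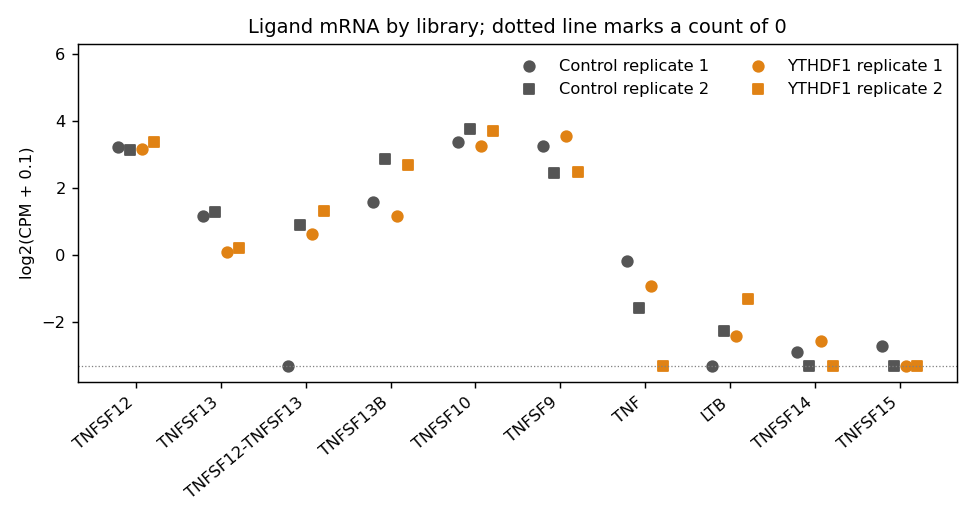
Log2(CPM + 0.1) of the 10 ligands on the y axis by library, with control in grey, YTHDF1 in orange, number 1 as circles and number 2 as squares. For TNFSF13 the colors separate, whereas for TNFSF13B, TNFSF10 and TNFSF9 the shapes separate.

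Of the 10 members, 7 passed the filter on low counts. Their median log2 fold change with YTHDF1 was −0.10, against 0.0047 over all genes tested. The groups did not overlap in 1 of the 7, which was TNFSF13, against 11.5% of all genes tested (5.83% with YTHDF1 lower and 5.67% with YTHDF1 higher). Between the libraries numbered 2 and those numbered 1, a comparison that played no part in choosing the members, 3 of the 7 were called at an adjusted p under 0.05 with the same minimum fold change, and 26.2% of all genes tested were. At an unadjusted p, the calls were 3 of 7 and 27.9%. In 5 of the 7 the numbers did not overlap, against 77.1% of all genes tested. With 7 genes, these shares are not set apart from the background.

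TNFSF13B, the ligand closest in function to TNFSF13, had 173 and 406 counts in control and 126 and 380 counts with YTHDF1 (2.91, 7.16, 2.14 and 6.29 CPM). It was high in both libraries numbered 2 and low in both numbered 1, while the vectors overlapped. The log2 fold change of number 2 over number 1 was 1.41 (standard error 0.18, adjusted p = 1.98e-04), and that of YTHDF1 over control was −0.26 (standard error 0.77), with −0.44 within number 1 and −0.19 within number 2.

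TNFSF10 (TRAIL), which triggers apoptosis through death receptors, had 605 and 770 counts in control and 552 and 771 counts with YTHDF1 (10.2, 13.6, 9.37 and 12.8 CPM). It was higher in number 2 by a log2 fold change of 0.43 (standard error 0.092, adjusted p = 0.00404), which is under the size asked for. Between the vectors the log2 fold change was −0.10 (standard error 0.28), with overlapping groups.

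TNFSF9 (4-1BB ligand), which costimulates T cells, went the other way between the numbers. It had 562 and 306 counts in control and 686 and 327 counts with YTHDF1 (9.45, 5.39, 11.7 and 5.41 CPM). The log2 fold change of number 2 over number 1 was −0.96 (standard error 0.13, adjusted p = 2.69e-04). Between the vectors it was 0.20 (standard error 0.54), with 0.30 within number 1 and 0.0056 within number 2.

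TNF, the founding cytokine of the family, had 46 and 13 counts in control and 25 and 0 counts with YTHDF1. It was lower in the libraries numbered 2 (log2 fold change −2.40, standard error 0.87, adjusted p = 0.0447), at a depth where a few counts decide the value. The adjusted p ran from 0.00406 to 0.419 over the alternatives. It was 0.419 by DESeq2's Wald test, 0.163 without the filter on low counts, 0.186 without control replicate 1, 0.0512 without YTHDF1 replicate 1 and 0.1 without YTHDF1 replicate 2, so the call did not hold in 5 of these settings. Its difference between the vectors was −1.24 with a standard error of 1.95, and the groups overlapped.

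The 3 members that did not pass the filter were near the limit of detection. LTB, which forms a membrane heterotrimer with LTA, had 0 and 6 counts in control and 5 and 18 counts with YTHDF1. TNFSF14 (LIGHT) had 2 and 0 counts in control and 4 and 0 with YTHDF1. TNFSF15 (TL1A) had 3 counts in control replicate 1 and 0 in the other libraries. No difference of TNFSF14 or TNFSF15 was detectable at this depth.

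The promoters of the ligands were searched for the core of the interferon-stimulated response element bound by interferon regulatory factors, which is GAAA, 2 bases of any kind, and GAAA again, because all cells had received IFN-γ. RefSeq promoter sequences of GRCh38.p14, each 300 bases long and spanning a start site, were matched for 8 of the 10 members, and TNFSF12 and TNFSF12-TNFSF13 were not matched. On either strand, the core was found in 4 members, TNFSF13B, TNFSF10, TNFSF9 and TNFSF14, and 3.57% of 35116 promoter entries held it. The 8 members had 12 entries, and a member counts if any of its entries matched. The counts of members and the shares of entries are thus in different units, here and for the motifs below. The matches of the 3 members that passed the filter are shown within 30 bases on the strand of the gene, with the core in capitals.
TNFSF13B, chr13:108269637-108269666, plus strand: tacaaaaactGAAAGTGAAAtgaggaagac
TNFSF10, chr3:172523598-172523627, minus strand: gaggagcttcTTTCAGTTTCcctcctttcc
TNFSF9, chr19:6530822-6530851, plus strand: tggaaggccgGAAACGGAAAggagagcgaa
The match of TNFSF13B starts 71 bases before one listed start site and at base 19 of the transcript from the other. Of 2 further motifs searched on both strands, the STAT site TTC, 3 bases of any kind, GAA was in 1 member (LTB) and 7.66% of all entries, and the NF-κB core GGG, 5 bases of any kind, CC was in 6 members and 58.7% of all entries. A match describes letters only. TNFSF13B and TNFSF9, which both hold the core, differed in opposite directions between the replicate numbers.

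The receptors of these ligands are listed by the ligand they bind. Of 29 listed receptors of the family, 25 passed the filter, and 0 were called between the vectors, at an unadjusted p under 0.05 or at an adjusted one, by edgeR's quasi-likelihood test or by DESeq2's Wald test. The median log2 fold change was 0.024, and 15 of 25 were on the higher side, against 0.0047 and 9287 of 17781 for all genes tested. Between the replicate numbers, 5 were higher and 7 were lower in number 2 at the adjusted threshold, against 9.96% and 16.2% of all genes tested.

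The receptors of TNFSF13 and TNFSF13B had few or no counts. TNFRSF13B (TACI) had 0 counts in the 4 libraries. TNFRSF17 (BCMA) had 12 and 27 counts in control and 20 and 25 with YTHDF1, and TNFRSF13C (BAFF receptor) had 77 and 46 in control and 101 and 69 with YTHDF1. TNFRSF12A, the receptor of TNFSF12, had by contrast the highest mean among the listed receptors per length, 83.7 CPM per kb. It had 159 and 150 CPM in control and 149 and 161 CPM with YTHDF1, with a log2 fold change of 0.0027 between the vectors (standard error 0.093).

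For TNFSF10, the death receptor TNFRSF10B had 202 and 202 CPM in control and 213 and 205 CPM with YTHDF1, and TNFRSF10A had 46.2 to 52.2 CPM in the 4 libraries. The decoy receptors varied with the replicate number. TNFRSF10D had 40.2 and 15.5 CPM in control and 41.4 and 13.97 CPM with YTHDF1 (log2 fold change of number 2 over number 1 −1.47, adjusted p = 4.75e-07). TNFRSF10C was higher in number 2 (0.57, adjusted p = 3.69e-04), and so was the soluble receptor TNFRSF11B (osteoprotegerin), which had 0.689 and 3.21 CPM in control and 0.492 and 2.29 CPM with YTHDF1 (2.21, adjusted p = 1.76e-04).

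Among the receptors of the remaining ligands, TNFRSF1A, the main receptor of TNF, had 101 to 109 CPM in the 4 libraries, whereas TNFRSF1B had 1.29 to 2.599 CPM. LTBR, which binds lymphotoxin heterotrimers and LIGHT, was lower in number 2 (−0.52, adjusted p = 2.15e-05), and TNFRSF14 (HVEM), the other receptor of LIGHT, was higher (1.42, adjusted p = 8.84e-07). TNFRSF9 (4-1BB) had 1.12 to 1.67 CPM. TNFRSF25 (DR3) had 8.90 to 11.97 CPM, and the decoy TNFRSF6B had 10.3 and 10.4 CPM in control and 7.67 and 9.57 CPM with YTHDF1, with a log2 fold change of −0.26 between the vectors (standard error 0.22, unadjusted p = 0.296).

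The widest differences between the numbers were in receptors that were close to silent in number 2. CD40, which in epithelial cells responds to CD40 ligand on T cells, had 1539 and 1590 counts in the libraries numbered 1 of control and YTHDF1, and 0 and 6 counts in those numbered 2 (adjusted p = 4.23e-08). EDAR, the ectodysplasin receptor, had 111 and 130 counts in number 1 and 2 and 0 in number 2, a ratio of 119 with a 95% counting interval of 32.7 to 990. TNFRSF8 (CD30) had 30 and 13 counts in number 1 and 0 in both libraries of number 2. Its mean CPM in number 1 was 7.07-fold above the limit of a count of 0, without the counting error of number 1. NGFR fell by 3.74 on the log2 scale in number 2 relative to number 1 (standard error 0.31, adjusted p = 1.64e-05), from 4.07 and 3.92 CPM to 0.176 and 0.414 CPM.

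**Figure D4:**
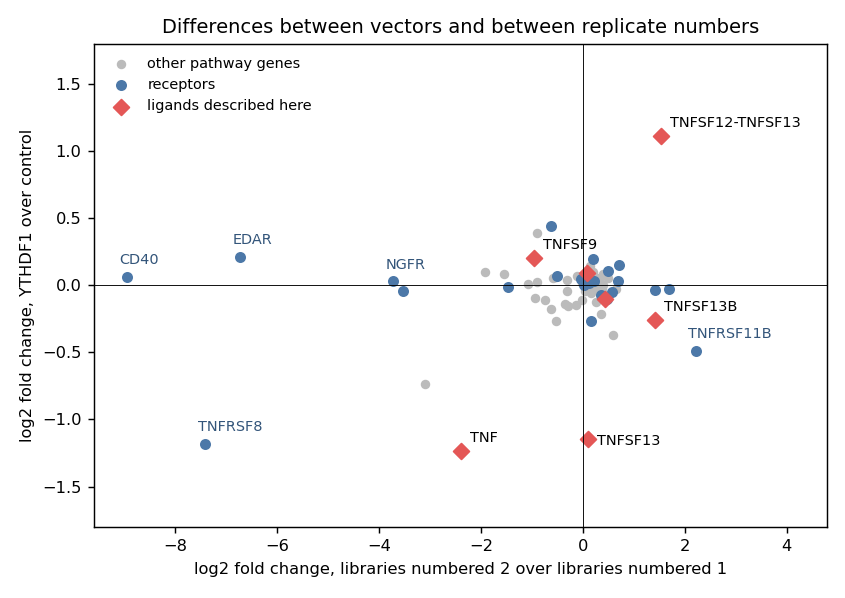
Fitted log2 fold changes of the 7 ligands that passed the filter (red), 25 receptors (blue) and the other listed genes (grey), with number 2 over number 1 on the x axis and YTHDF1 over control on the y axis. Receptors spread along the x axis and lie closer to 0 on the y axis, except TNFRSF8 at −1.18 with few counts, while TNFSF13 lies near 0 on the x axis and at −1.15 on the y axis. The x values of CD40, EDAR and TNFRSF8, which have libraries at a count of 0, depend on the prior count of the fit.

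Of the 18 receptor adaptors and kinases, all were tested and 0 were called between the vectors. Between the numbers 2 were higher and 1 was lower in number 2, against 9.96% and 16.2% of all genes tested. BIRC3, a ubiquitin ligase induced by NF-κB, was higher (0.65, adjusted p = 7.44e-06), as was TRAF1 (0.59, adjusted p = 0.0324), and TRAF3, which restrains noncanonical NF-κB signaling, was lower (−0.91, adjusted p = 2.71e-06). The 11 NF-κB factors and inhibitors gave 0 calls between the vectors. Their median log2 fold change was −0.057 with 2 on the higher side, against 0.0047 and 9287 of 17781 for all genes tested. Their median size of change was 0.078, against 0.069. NFKBIB (−0.63, adjusted p = 2.7e-04), REL (−0.58, adjusted p = 2.97e-04) and RELB (−0.52, adjusted p = 0.00324) were lower in number 2, and 0 were higher.

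Of 10 genes for ligand processing and heparan sulfate, which retains APRIL at cell surfaces, 9 were tested, and 0 were called between the vectors. In number 2, 4 were lower and 0 were higher, against 16.2% and 9.96% of all genes tested. FURIN, the protease that releases APRIL, BAFF and TWEAK, had 60.0 and 27.2 CPM in control and 58.8 and 29.2 CPM with YTHDF1 (log2 fold change −1.08, adjusted p = 8.63e-07). The related convertase PCSK5 was lower by more (−1.55, adjusted p = 5.81e-05), and ADAM17, which releases TNF, by less (−0.52, adjusted p = 1.13e-04). SDC4, a heparan sulfate proteoglycan, had 85.4 and 22.4 CPM in control and 91.2 and 24.1 CPM with YTHDF1 (−1.92, adjusted p = 3.96e-08). Within each number, the libraries of the vectors were close to each other for FURIN and SDC4.

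Of 82 genes on the 6 lists, 72 were tested, 0 were called between the vectors and 25 were called between the numbers, against 0.101% and 26.2% of all genes tested. Since edgeR did not call the overexpressed YTHDF1 at an adjusted p, the 0 calls between the vectors do not show that the listed genes were unchanged. The 5 genes whose pattern over the 4 libraries was nearest to that of TNFSF13, by Euclidean distance of centred log2 CPM, were ACTG1P17 (0.0417), LOC105376301 (0.231), LOC107984129 (0.252), SMCO2 (0.287) and HERC2P11 (0.295). The first had 18 and 19 counts in control and 8 and 9 with YTHDF1, and each of the 5 had 31 counts or fewer in every library, where a few counts shape the pattern.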

How the data were processed

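The authors made libraries with a stranded mRNA kit and deposited raw counts, which are whole numbers per gene, for 46427 genes. The submitters' processing notes name Trimmomatic, HISAT2 and GRCh38, and the counting tool is not given in the sources used here. Of these genes, 20072 had 0 counts in all libraries. With R 4.3.3 and edgeR 4.0.16, genes were kept by filterByExpr (17781 genes), scaled by TMM and compared by the quasi-likelihood test, with Benjamini-Hochberg adjustment over all genes tested. Groups and replicate numbers came from the sample titles. YTHDF1 was compared with control, and libraries numbered 2 with those numbered 1, with 2 libraries against 2. Each standard error is the size of the log2 fold change divided by the square root of F. Differences within a number used a prior count of 0.5. For sums, the summed rows replaced the single genes and the whole table was refitted. P-values measure the spread between these libraries, which may be technical. Alternatives included DESeq2 1.42.0, other filters and library sizes, the replicate block, and each library left out.

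The members and gene lists were chosen with earlier results of these data known. The text names all members, the receptors of the members, up to 4 genes per list and comparison with the largest change among those called, and the 5 genes most like TNFSF13. The procedure was also run on simulated data with planted differences, and the outcome is not given here. Sequences and exons came from GENCODE 29 and RefSeq, and figures from matplotlib 3.10.9.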

Additional observations from a re-analysis of the deposited data

How the results depend on the processing

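TNFSF13 had a log2 fold change of −1.15 under each setting with all 4 libraries, and it ran from −1.21 to −1.09 with 1 library left out, when it was no longer called in any of the 4 fits; a lone library is then assumed to vary like the others. With 1 library left out, the locus sum ran from −0.105 to 0.176 and the sum of TNFSF13 and the read-through gene from −0.484 to 0.432. The replicate numbers are then unbalanced, and whether this sets the range was not tested. The number of members called between the vectors ran from 0 to 1 and that of list genes from 0 to 1. These calls were TNFSF12-TNFSF13 without control replicate 2 and TNF and LTA without YTHDF1 replicate 1, each with a fitted fold against libraries at 0 that depends on the prior count. The same numbers ran from 2 to 49 for all higher genes and from 9 to 47 for all lower genes, against 4 and 14 with all libraries. Without the filter on low counts, 32 genes were higher and 50 lower. DESeq2's Wald test called 3 genes at an adjusted p under 0.05, against 0.

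The replicate numbers mark no shared source in the labels, although deviations from the group mean correlated between libraries of the same number (r = 0.875 across 17781 genes, which are not independent replicates). With the replicate block, 58 genes were higher and 134 lower, 8 passed the adjusted threshold, and 2 members were called, TNFSF13 (−1.15) and TNFSF12-TNFSF13 (1.76). The blocked log2 fold change was 0.0425 for the locus sum and −0.058 for the sum of TNFSF13 and the read-through gene, and 0 list genes were called.

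Between the replicate numbers, the calls of TNFSF13B (1.21 to 1.65) and TNFSF9 (−1.11 to −0.806) held under each alternative run. With at least 10 counts in every library, 15511 genes were tested, against 17781. Of these, 1906 were lower in number 2, against 2888, and 1693 were higher, against 1771. TNFSF12-TNFSF13 passed the threshold with the vector as a term (2.09, adjusted p = 0.0448) and without YTHDF1 replicate 1. The cause of these changes was not tested. Members with few counts limit what can be seen: 3 of 10 could not be tested.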

Other observations

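Of 9 further ligands of the family, 4 passed the filter and 0 were called between the vectors. LTA, the partner of LTB, had 98 and 19 counts in control and 70 and 0 counts with YTHDF1, and was lower in the libraries numbered 2 (log2 fold change −3.10, standard error 0.77, adjusted p = 0.00873), as TNF was. EDA, the ligand of EDAR, had 333 and 319 counts in control and 334 and 406 with YTHDF1, so its counts differed little between the numbers while those of EDAR fell from 111 and 130 to 2 and 0. CD70 had 0 and 4 counts in control and 19 and 2 with YTHDF1, and TNFSF8 and CD40LG had 0 counts in the 4 libraries. CD70, EDA, TNFSF8 and CD40LG were chosen for mention after their values were seen.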
